A study of Homo sapiens with 7 samples.

Results

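BCR and ABL1, the genes joined in the BCR::ABL1 fusion of the K562 leukemia cell line, were followed together with 8 genes that lie beside ABL1 on 9q34, namely FUBP3, PRDM12 and EXOSC2 before it on the chromosome and FIBCD1, LAMC3, AIF1L, NUP214 and FAM78A after it. These 10 genes, of the 25702 genes in the count table, were picked by name with their values in these libraries already known, so that their own levels are given as a description and with no test. K562 is an established chronic myeloid leukemia line, and all 7 lines carry its fusion. The dasatinib resistant (DasR) lines are bulk cultures taken from 1 dose escalation of K562 in the tyrosine kinase inhibitor dasatinib, at 10, 15 and 25 nM (early stage, n = 3) and at 50 and 200 nM (late stage, n = 2). The controls (n = 2) are a drug naive line and a line grown in the DMSO vehicle. One RNA-seq library was made from each line, without a repeat, and the authors deposited raw counts of reads per gene on hg19. Lines of 1 group stand in for replicates, so that the spread within it includes the dose, and lines along the same escalation are not independent cultures. Library totals ranged from 20059656 to 27844799 counts, and a level is given here as CPM, the counts of a gene scaled by the total of its library to a common depth.

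BCR::ABL1 arises when the start of BCR on chromosome 22 is joined to most of ABL1 on chromosome 9, which makes a tyrosine kinase that is always active and is the target of dasatinib. RNA of the fusion begins at the promoter of BCR and holds sequence of both genes, and a count table by gene divides its reads between BCR and ABL1. Reads of the fusion, of the intact genes and of any other transcript of these genes cannot be told apart here. K562 is known to carry extra copies of the fusion and a further fusion of NUP214 with XKR3, a gene of chromosome 22. DNA was not analysed here. In bulk RNA, fewer cells with a transcript and less of it in each cell also cannot be told apart.

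The promoters of BCR, ABL1 and NUP214 are printed because RNA of the fusions named above starts at BCR or at NUP214, while RNA of intact ABL1 starts at promoters of its own. ABL1 is known to have alternative first exons, each with a promoter. Of the 10 genes, 8 had an entry in the RefSeq promoter table (GRCh38.p14, a later build than the hg19 positions given for genes below), and LAMC3 and AIF1L had none. Each sequence is the 250 bases before the transcript start that this table gives for the gene, read 5′ to 3′ on the strand of the gene, which is the plus strand for all 3. Matched letter for letter to GRCh37, the build of hg19, the ABL1 window lies inside the gene, at chr9:133710391-133710640, and ends 122.2 kb behind the annotated start of ABL1, whose earlier first exon it does not cover. The transcript starts behind the BCR and NUP214 windows lie 805 and 13 bases inside the annotated genes. Capitals mark GC boxes (GGGCGG, or CCGCCC on the other strand).
BCR, chr22:23180259-23180508: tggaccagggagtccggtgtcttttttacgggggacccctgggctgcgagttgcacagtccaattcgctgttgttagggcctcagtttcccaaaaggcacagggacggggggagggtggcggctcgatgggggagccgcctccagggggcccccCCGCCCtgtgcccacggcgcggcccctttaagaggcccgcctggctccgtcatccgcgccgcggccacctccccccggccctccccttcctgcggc
ABL1, chr9:130835004-130835253: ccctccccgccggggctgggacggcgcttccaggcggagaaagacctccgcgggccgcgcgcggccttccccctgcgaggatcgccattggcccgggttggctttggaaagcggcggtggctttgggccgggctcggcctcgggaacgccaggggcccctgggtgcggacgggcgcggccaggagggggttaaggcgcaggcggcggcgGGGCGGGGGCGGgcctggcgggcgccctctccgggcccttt
NUP214, chr9:131125336-131125585: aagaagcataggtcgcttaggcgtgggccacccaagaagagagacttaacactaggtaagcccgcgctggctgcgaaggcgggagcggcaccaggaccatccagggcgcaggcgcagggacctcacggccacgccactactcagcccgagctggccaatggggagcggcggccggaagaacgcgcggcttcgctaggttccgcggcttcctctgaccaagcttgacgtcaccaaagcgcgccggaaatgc
The window of ABL1 held 2 GC boxes, that of BCR 1 and that of NUP214 none, and a GC box was found in 42.6% of the 35116 promoters of the table. G and C made up 78.4% of the ABL1 window, 70.8% of the BCR window and 65.2% of the NUP214 window, with a median of 58.0% over all promoters. A CCAAT box (CCAAT or ATTGG) was found in all 3 windows and in 32% of all promoters. Neither a TATA box (TATAAA or TTTATA, 10.7% of promoters) nor the GATA motif in the form AGATAA or TTATCT (9.17%) was found in the windows of the 8 genes. These matches of letters describe the windows only.

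ABL1 (gene ID 25), which encodes a tyrosine kinase outside the receptor class, is located on chromosome 9 (hg19, 133588430 to 133763062, plus strand). Its control levels were 349.3 CPM (drug naive) and 319.5 CPM (DMSO). In the DasR lines it was at 2557 CPM at 10 nM, 2021 CPM at 15 nM, 1686 CPM at 25 nM, 1390 CPM at 50 nM and 918.2 CPM at 200 nM. All 5 DasR lines lay above both controls, and each line lay below the one at the dose before it. Group means were 334.4 ± 21.07 CPM (SD, n = 2) in controls, 2088 ± 439.3 CPM (SD, n = 3) in early stage lines and 1154 ± 333.8 CPM (SD, n = 2) in late stage lines. Fitted against the controls, the log2 difference was 2.63 (standard error 0.25) for early stage and 1.77 (standard error 0.25) for late stage lines, and late stage lines differed from early stage lines by -0.86 (standard error 0.23).

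BCR (gene ID 613), which encodes a protein with a kinase domain and a domain that acts on small GTPases, is located on chromosome 22 (hg19, 23521891 to 23660224, plus strand). Its control levels were 194.8 CPM (drug naive) and 179.6 CPM (DMSO). Along the escalation it was at 1379 CPM at 10 nM, 1097 CPM at 15 nM, 933.5 CPM at 25 nM, 756.6 CPM at 50 nM and 462.8 CPM at 200 nM. BCR thus had the same order of lines as ABL1, highest at 10 nM, lowest among DasR lines at 200 nM and below all of these in the controls. Relative to the control mean, BCR was 7.36 times as high at 10 nM and 2.47 times at 200 nM, and ABL1 was 7.65 times and 2.75 times as high. The log2 fold change of BCR was 2.59 (standard error 0.26) in early stage and 1.68 (standard error 0.27) in late stage lines against controls, and -0.90 (standard error 0.24) between late and early stage lines.

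**Figure D1:**
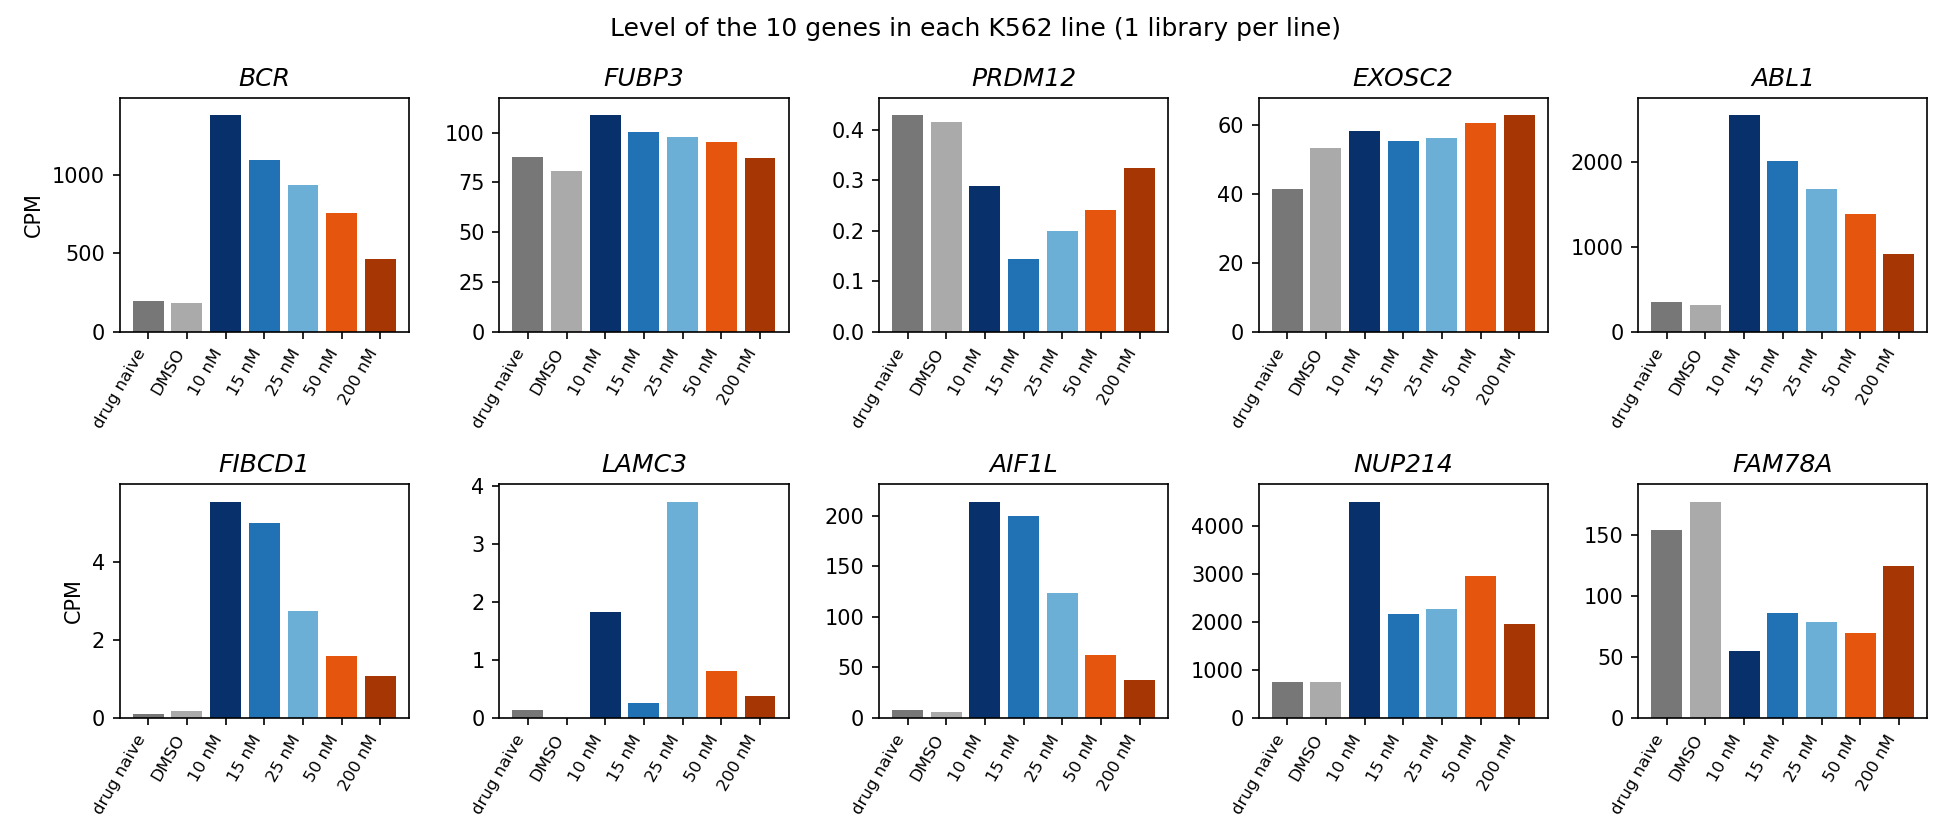
Level in CPM of each of the 10 genes (1 panel per gene, each with its own axis from 0) in the 7 K562 lines, 1 bar per library and no error bar because each line has 1 library. BCR and ABL1 step down from 10 to 200 nM and stay above the gray control bars, FUBP3 and EXOSC2 differ little between lines, and FAM78A is below both controls in all 5 DasR lines.

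The 2 fusion partners kept a nearly fixed proportion. Per kilobase of gene length, the level of BCR divided by that of ABL1 was 0.480 (drug naive) and 0.484 (DMSO) among controls. It was 0.464, 0.467 and 0.477 at 10, 15 and 25 nM, 0.469 for the 50 nM line and 0.434 for the 200 nM line. The highest of these ratios was 1.12 times the lowest, while ABL1 itself differed by 2.78 times between the 10 and 200 nM lines alone. Divided by its level at the dose before, ABL1 stood at 0.791, 0.834, 0.825 and 0.661 from 15 to 200 nM, and BCR at 0.796, 0.851, 0.811 and 0.612. The last step, from 50 to 200 nM, was the largest for both genes, and the one at which BCR and ABL1 differed most from each other. A single ratio carries no error, since no line was sequenced again.

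On the scale of CPM per kilobase of gene length, ABL1 stood at 58.6 in the drug naive line and 428.8 at 10 nM, and BCR at 28.1 and 199.0. Among the 10452 genes that could be ranked on this scale, ABL1 was at rank 1240 in the drug naive line, 1466 in the DMSO line, 117 at 10 nM, 161 at 25 nM and 372 at 200 nM. BCR was at rank 2885 in the drug naive line, 260 at 10 nM and 1181 at 200 nM. Counts of BCR, ABL1 and NUP214 together made up 0.129% of the drug naive library, 0.843% at 10 nM and 0.334% at 200 nM.

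Near relatives with similar sequence were looked at because reads could be shared with them. ABL2, the other ABL kinase (gene ID 27), was at 97.1 and 91.3 CPM in the drug naive and DMSO lines, 120.3, 123.6 and 130.9 CPM at 10, 15 and 25 nM, 115.9 CPM at 50 nM and 84.9 CPM at 200 nM. Its early stage log2 fold change of 0.39 (standard error 0.14) did not pass the threshold, an FDR of 0.005 by edgeR (quasi-likelihood test, Benjamini-Hochberg adjusted) (FDR 0.0559). ABR, the relative of BCR (gene ID 29), was at 1.95 and 1.62 CPM in the drug naive and DMSO lines, 3.81, 4.63 and 4.49 CPM at 10, 15 and 25 nM, 4.90 CPM at 50 nM and 1.94 CPM at 200 nM. It lay above both controls from 10 to 50 nM, the direction of BCR, with an early stage mean 2.41 times the control mean, and between the controls at 200 nM, at levels below the limit set for the fit, 10 CPM in 2 libraries. BCRP3, the BCR pseudogene copy that the table names, was between 0.556 and 3.07 CPM, with early and late stage lines overlapping the controls. Reads that fit BCR and such a copy alike could have been counted for either one or dropped.

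Of the genes before ABL1, EXOSC2 and FUBP3 were at no more than 1.33 times the control mean in any DasR line, and PRDM12 had few counts. EXOSC2 (gene ID 23404), a subunit of the RNA exosome, ends 5.75 kb before the start of ABL1, at chromosome 9 from 133569108 to 133582675. It was at 41.6 CPM (drug naive) and 53.3 CPM (DMSO) in the controls, 58.3, 55.5 and 56.2 CPM at 10, 15 and 25 nM, 60.6 CPM at 50 nM and 62.9 CPM at 200 nM. The early stage lines lay above both controls by a small margin, and both late stage lines lay above all early stage lines, the opposite order to ABL1. Its log2 fold change was 0.24 (standard error 0.11) in early and 0.36 (standard error 0.12) in late stage lines.

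FUBP3 (gene ID 8939), which encodes a protein that binds single-stranded DNA and RNA, lies from 133454352 to 133513739. Its level was 87.6 and 80.7 CPM in the drug naive and DMSO lines, 108.7, 100.4 and 98.0 CPM at 10, 15 and 25 nM, 95.3 CPM at 50 nM and 87.0 CPM at 200 nM. FUBP3 was lower at every step from 10 to 200 nM, as ABL1 was, but over a range of 1.25 times, and the 200 nM line lay between the controls. The fitted log2 fold change was 0.27 (standard error 0.10) in early and 0.09 (standard error 0.11) in late stage lines. PRDM12 (gene ID 59335, from 133539981 to 133558373), a zinc finger gene of developing sensory neurons, had 9 and 10 counts in the controls and 8, 4, 4, 5 and 7 counts from 10 to 200 nM. The pooled ratio of early stage to control CPM for PRDM12 was 0.501, with a 95% exact interval from 0.241 to 1.03 that covers counting error only and not the spread between lines.

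Behind the end of ABL1, levels above the controls were measured in a run of 4 genes. FIBCD1 (gene ID 84929, chromosome 9 from 133777825 to 133814673 on the minus strand), a membrane receptor that binds acetylated sugars, had only 2 (drug naive) and 4 (DMSO) counts in the controls. It had 154, 139 and 55 counts at 10, 15 and 25 nM, 33 counts at 50 nM and 23 counts at 200 nM. The order of the DasR lines was that of ABL1 and BCR. The pooled ratio to the controls was 34.5 in early stage lines (95% exact counting interval 15.7 to 94.7) and 9.91 in late stage lines (4.28 to 28.2).

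LAMC3 (gene ID 10319, from 133884561 to 133969860), the gamma 3 chain of laminin, had 3 counts in drug naive cells and none in the DMSO line, where 3 counts would be 0.125 CPM. It had 51, 7 and 75 counts at 10, 15 and 25 nM, 17 counts at 50 nM and 8 counts at 200 nM. LAMC3 was above the controls in CPM in every DasR line, but at 15 nM, the second highest line for ABL1, it was at 0.251 CPM with a 95% exact counting interval from 0.101 to 0.518, which overlapped those of the 200 nM line (0.160 to 0.730) and the drug naive line (0.0295 to 0.417). The pooled ratio was 26.4 in early stage lines (95% exact counting interval 8.83 to 129.5) and 8.85 in late stage lines (2.70 to 45.8), against controls with 3 counts in all. FIBCD1, LAMC3 and PRDM12 did not reach the limit of 10 CPM in 2 libraries that was set for the fit.

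AIF1L (gene ID 83543, from 133971863 to 133998539 on the plus strand) encodes an actin-binding protein. Its level was 7.81 CPM (drug naive) and 5.62 CPM (DMSO) in the controls, and 214.2, 199.8 and 123.6 CPM at 10, 15 and 25 nM, 62.4 CPM at 50 nM and 37.1 CPM at 200 nM. This gave 31.9 times the control mean at 10 nM and 5.52 times at 200 nM, so that AIF1L differed from the controls by a larger factor than ABL1 in every DasR line. AIF1L passed the limit set for the fit through the DasR lines only. Its log2 fold change was 4.73 (standard error 0.39) in early and 2.87 (standard error 0.37) in late stage lines, and -1.86 (standard error 0.32) between late and early stage lines. AIF1L went from rank 10064 of 10452 per kilobase in the drug naive line to rank 1206 at 10 nM.

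NUP214 (gene ID 8021, from 134000960 to 134110050 on the plus strand) encodes a protein of the nuclear pore. It was at 742.4 and 753.5 CPM in the drug naive and DMSO lines, the highest control level of the 10 genes, and also per kilobase among the 7 for which a length was given. Among DasR lines it was at 4499 CPM at 10 nM, 2158 CPM at 15 nM, 2266 CPM at 25 nM, 2960 CPM at 50 nM and 1957 CPM at 200 nM. All 5 DasR lines lay above the controls, but the 50 nM line lay above the 15 and 25 nM lines, so the order differed from that of ABL1. Per kilobase, NUP214 was at 1.92 and 2.13 times ABL1 in the drug naive and DMSO lines, 1.59, 0.965 and 1.21 times at 10, 15 and 25 nM, and 1.92 and 1.93 times at 50 and 200 nM. Its log2 fold change was 1.98 (standard error 0.36) in early and 1.70 (standard error 0.38) in late stage lines. The difference of -0.28 (standard error 0.34) between late and early stage lines became 0.15 when the 10 nM line was left out.

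XKR3 (gene ID 150165, chromosome 22 from 17264302 to 17306301 on the minus strand), the known fusion partner of NUP214 in K562, was looked up after the values of NUP214 had been seen. It was at 24.3 and 24.8 CPM in the drug naive and DMSO lines, 585.1 CPM at 10 nM, 107.4 CPM at 15 nM, 136.4 CPM at 25 nM, 275.2 CPM at 50 nM and 241.5 CPM at 200 nM. As for NUP214, the 10 nM line was highest, the 15 nM line was below the 25 nM line, and the 50 nM line was above both of these. At 200 nM they differed, with XKR3 above its 15 and 25 nM lines and NUP214 below them. Its log2 fold changes of 3.48 (standard error 0.78) in early and 3.38 (standard error 0.81) in late stage lines did not pass the threshold by edgeR (quasi-likelihood test, Benjamini-Hochberg adjusted) (FDR 0.0102 and 0.0184).

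**Figure D2:**
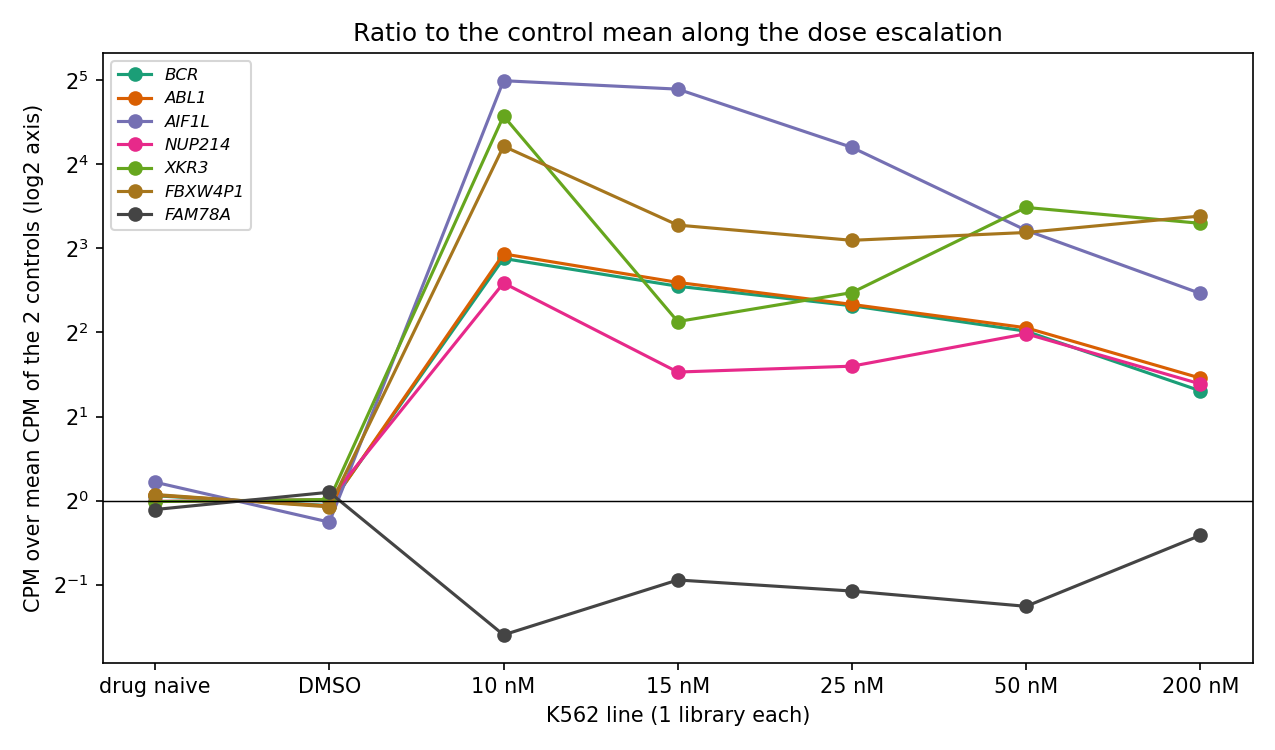
CPM of each gene divided by the mean CPM of the 2 control lines (log2 axis) in the 7 K562 lines, 1 point per library joined by a line per gene. BCR and ABL1 lie almost on top of each other from 7.36 and 7.65 at 10 nM to 2.47 and 2.75 at 200 nM, AIF1L starts at 31.9, NUP214 and XKR3 dip at 15 nM, FBXW4P1, a pseudogene inside BCR, stays above 8 in every DasR line, and FAM78A lies below 1.

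FAM78A (gene ID 286336, from 134133463 to 134152752 on the minus strand) starts 23.4 kb behind the end of NUP214 and went the other way. It was at 153.8 and 177.3 CPM in the drug naive and DMSO lines, 54.7, 86.0 and 78.5 CPM at 10, 15 and 25 nM, 69.2 CPM at 50 nM and 124.2 CPM at 200 nM. No DasR line overlapped the controls, and the 10 nM line, highest for ABL1, was lowest for FAM78A. Its log2 fold change was -1.20 (standard error 0.26) in early and -0.80 (standard error 0.29) in late stage lines. The stretch from the start of ABL1 to the end of NUP214, in which every member was above the controls, spans 521.6 kb, and levels near or below the controls were measured 5.75 kb before it and 23.4 kb behind it.

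Counted over the 10 genes, 8 had every early stage line above both controls and 2, PRDM12 and FAM78A, had every early stage line below them. Of all 10452 genes with at least 10 CPM in 2 libraries, 35.9% were above in this way and 34.0% below. Of the 7 genes of the set that are among these 10452, 6 were above and 1 below. In late stage lines 7 of the 10 were above (34.3% of genes), 2 below (33.4%), and FUBP3 overlapped the controls, with 5 of the 7 above and 1 below. BCR, ABL1, FUBP3, FIBCD1 and AIF1L had both late stage lines below every early stage line (26.4% of genes) and were also lower at every step from 10 to 200 nM (2.66% of genes), and 4 of these 5, all but FIBCD1, are among the 10452. EXOSC2 had both late stage lines above every early stage line (26.8% of genes). Since the genes were chosen with these values known, nothing is read from their excess over the share of all genes.

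**Figure D3:**
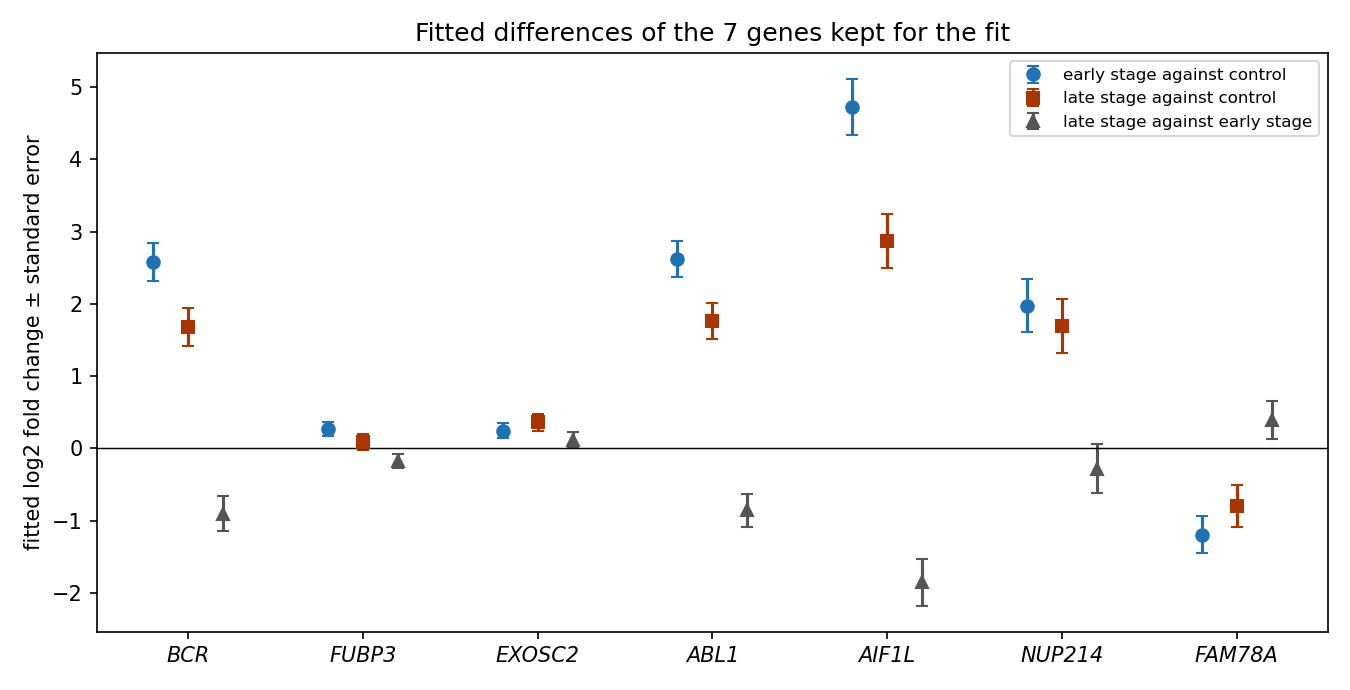
Fitted log2 fold change (points) with its standard error (bars) for the 7 genes kept for the fit, for early stage against control (circles), late stage against control (squares) and late against early stage (triangles). AIF1L reaches 4.73 and BCR and ABL1 about 2.6 in early stage lines, FUBP3 and EXOSC2 lie within 0.4 of 0, and FAM78A is at -1.20.

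Beyond these genes, the 46 other genes within 2 Mb of ABL1 were taken by position alone, and 30 of them passed the filter. At an FDR of 0.005 by edgeR (quasi-likelihood test, Benjamini-Hochberg adjusted), 4 of these 30 were higher and 5 lower in early stage lines, where 7.92% of all genes were higher and 10.1% lower. In late stage lines 2 were higher and 5 lower, where 3.42% of all genes were higher and 4.56% lower. The comparisons of early and late stage lines share the same 2 controls. Between late and early stage lines none of the 10452 genes passed in edgeR (0%), although 3450 genes (33.0%) had an unadjusted p under 0.05 and DESeq2 called 1135 genes. The median log2 fold change in early stage lines was 0.14 over 21 genes before ABL1 and 0.17 over 9 genes behind it, and 0.003 over all genes. Called genes before ABL1 were NTMT1 (log2 fold change 1.09) and C9orf78 (0.86), which were higher, and ASS1 (-3.43), LINC00963 (-1.43), FNBP1 (-1.29) and GPR107 (-0.67), which were lower in early stage lines. Behind the run, DDX31 (1.05) and GTF3C4 (0.69) were higher and RAPGEF1 (-0.63) lower. The early stage calls of C9orf78, GPR107, RAPGEF1 and GTF3C4 were lost without either control and without any 1 of the early stage lines. That of NTMT1 was lost without either control, the 15 nM or the 25 nM line. With a limit of 1 CPM in place of 10 CPM, NTMT1 was no longer called in early stage lines (FDR 0.00526 in edgeR), nor NTMT1 and GPR107 in late stage lines (FDR 0.00552 and 0.00526 in edgeR). The number of genes within 2 Mb of ABL1 called in early stage lines was then 10, against 9 with the limit of 10 CPM. Of calls in early stage lines, 0 were made without the drug naive control, 3 without the DMSO control or the 25 nM line, 5 without the 10 nM line and 4 without the 15 nM line. Of calls in late stage lines, 0 were made without either control, 2 without the 25 or the 50 nM line and 1 without the 200 nM line.

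ASS1 (gene ID 445, from 133320348 to 133376661), the enzyme of arginine synthesis that joins citrulline and aspartate, was the nearest tested gene before FUBP3. It was at 52.5 and 36.7 CPM in the drug naive and DMSO lines, 3.13, 4.81 and 4.64 CPM at 10, 15 and 25 nM, 4.03 CPM at 50 nM and 7.13 CPM at 200 nM. All DasR lines lay far below the controls, with a log2 fold change of -3.43 in early stage lines (standard error 0.30, FDR 0.000366 by edgeR (quasi-likelihood test, Benjamini-Hochberg adjusted)) and -3.02 in late stage lines (standard error 0.35, FDR 0.00150 by the same test). ASS1 passed the limit of 10 CPM through the controls only, and with a limit of 1 CPM, which all its lines met, the edgeR FDR was 0.000429 in early and 0.0019 in late stage lines. Without the drug naive control the early stage FDR was 0.00516, and in late stage lines the call was lost without either control or the 50 nM line (FDR up to 0.0135 in edgeR). PRRC2B, the nearest tested gene behind FAM78A, was at 354.1 and 335.4 CPM in the drug naive and DMSO lines and between 299.2 and 327.3 CPM in the DasR lines, and did not pass the threshold. QRFP, a neuropeptide gene between ABL1 and FIBCD1 that was picked after its values were seen, was below 10 CPM throughout and had a pooled ratio to the controls of 6.26 in early stage lines (95% exact counting interval 4.08 to 10.1) and 1.89 in late stage lines (1.11 to 3.31).

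**Figure D4:**
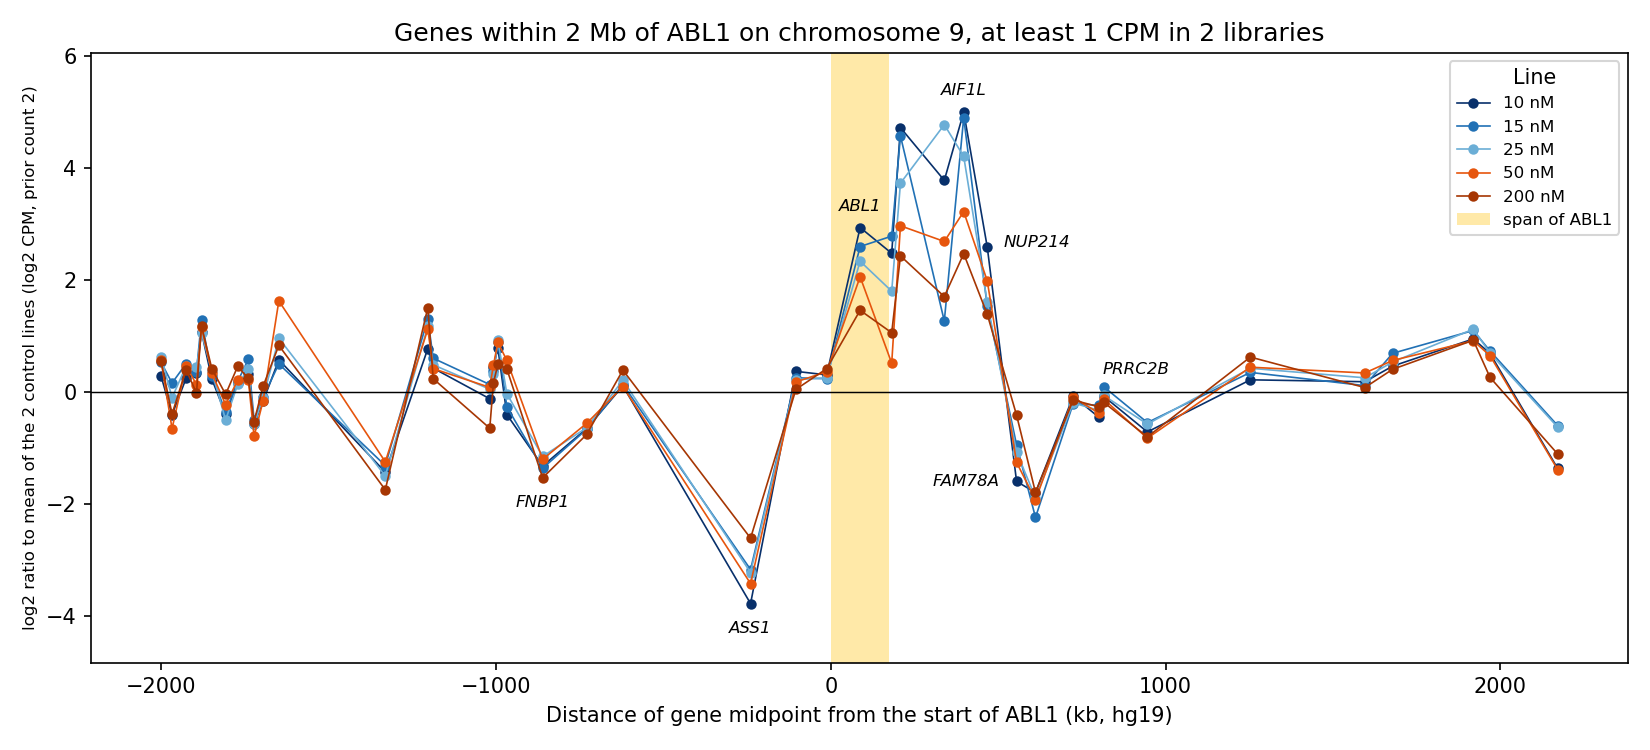
Genes with at least 1 CPM in 2 libraries within 2 Mb of ABL1, by the distance of the gene's midpoint from the start of ABL1 (kb) and the log2 ratio of each DasR line to the mean of the controls (prior count 2), 1 line of points per K562 line, with the span of ABL1 shaded. ABL1, FIBCD1, LAMC3, AIF1L and NUP214 lie at 1.27 or more in all 5 lines, QRFP among them lies between 0.52 and 2.78, and ASS1 and FAM78A are below 0. Genes farther out lie on both sides of 0. Among them, in all 5 lines, DOLK is at 1.053 or more, PLPP7 at -1.79 or less, FNBP1 at -1.148 or less and LINC00963 at -1.244 or less.

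On chromosome 22, 30 of the 119 genes within 2 Mb of BCR passed the filter. Of these 30, 1 was called higher and 1 lower in early stage lines, where 7.92% of all genes were higher and 10.1% lower. For late stage lines 1 was called higher and none lower, where 3.42% of all genes were higher and 4.56% lower. FBXW4P1 (gene ID 26226, from 23604954 to 23607192), a pseudogene that lies inside BCR on the same strand, was at 2.90 and 2.62 CPM in the drug naive and DMSO lines, 51.4, 26.8 and 23.6 CPM at 10, 15 and 25 nM, 25.2 CPM at 50 nM and 28.9 CPM at 200 nM. It was above the controls in every DasR line but did not follow BCR downward from 25 to 200 nM. Its log2 fold change was 3.61 in early stage lines (standard error 0.39, FDR 0.000733 by edgeR (quasi-likelihood test, Benjamini-Hochberg adjusted)) and 3.27 in late stage lines (standard error 0.40, FDR 0.00199 by the same test). FBXW4P1 passed the limit of 10 CPM through the DasR lines only, and with a limit of 1 CPM, which all its lines met, the edgeR FDR was 0.000831 in early and 0.00229 in late stage lines. Reads of BCR that run across the pseudogene and reads of the pseudogene itself cannot be told apart in these counts. The early stage FDR rose up to 0.0107 when either control was left out, and the late stage call was lost without either control or either late stage line (FDR up to 0.0201 in edgeR).

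DERL3, a gene of protein degradation in the endoplasmic reticulum, was the other call near BCR, lower in early stage lines (log2 fold change -1.45, standard error 0.24, FDR 0.00310 by edgeR (quasi-likelihood test, Benjamini-Hochberg adjusted)). It was at 15.8 and 13.3 CPM in the controls and between 4.32 and 6.72 CPM in the DasR lines, so that it passed the limit of 10 CPM through the controls only, and its edgeR FDR with a limit of 1 CPM was 0.00261. The DERL3 call was made in 3 of the 7 fits with 1 library left out and was lost without either control, the 10 nM or the 25 nM line (FDR up to 0.0343 in edgeR). Both early stage calls near BCR were lost without either control. Without either late stage line more genes near BCR were called in early stage lines, and the share of all genes in those fits is not given here. GNAZ and RAB36, just before BCR and picked after their values were seen, were highest at 10 nM, at 14.6 and 22.4 CPM against 0.524 and 2.76 CPM in the drug naive line, and at 200 nM GNAZ was at 2.08 CPM, 5.12 times its control mean, while RAB36 was back at 2.83 CPM. The 15 tested genes before BCR had a median log2 ratio to the controls of 0.77, 0.68, 0.72 and 0.72 at 10, 15, 25 and 50 nM and of -0.53 at 200 nM. None of the 15 was called, where 18.0% of all genes were called in early and 7.98% in late stage lines. The medians of the 14 behind BCR were between -0.12 and 0.20.

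**Figure D5:**
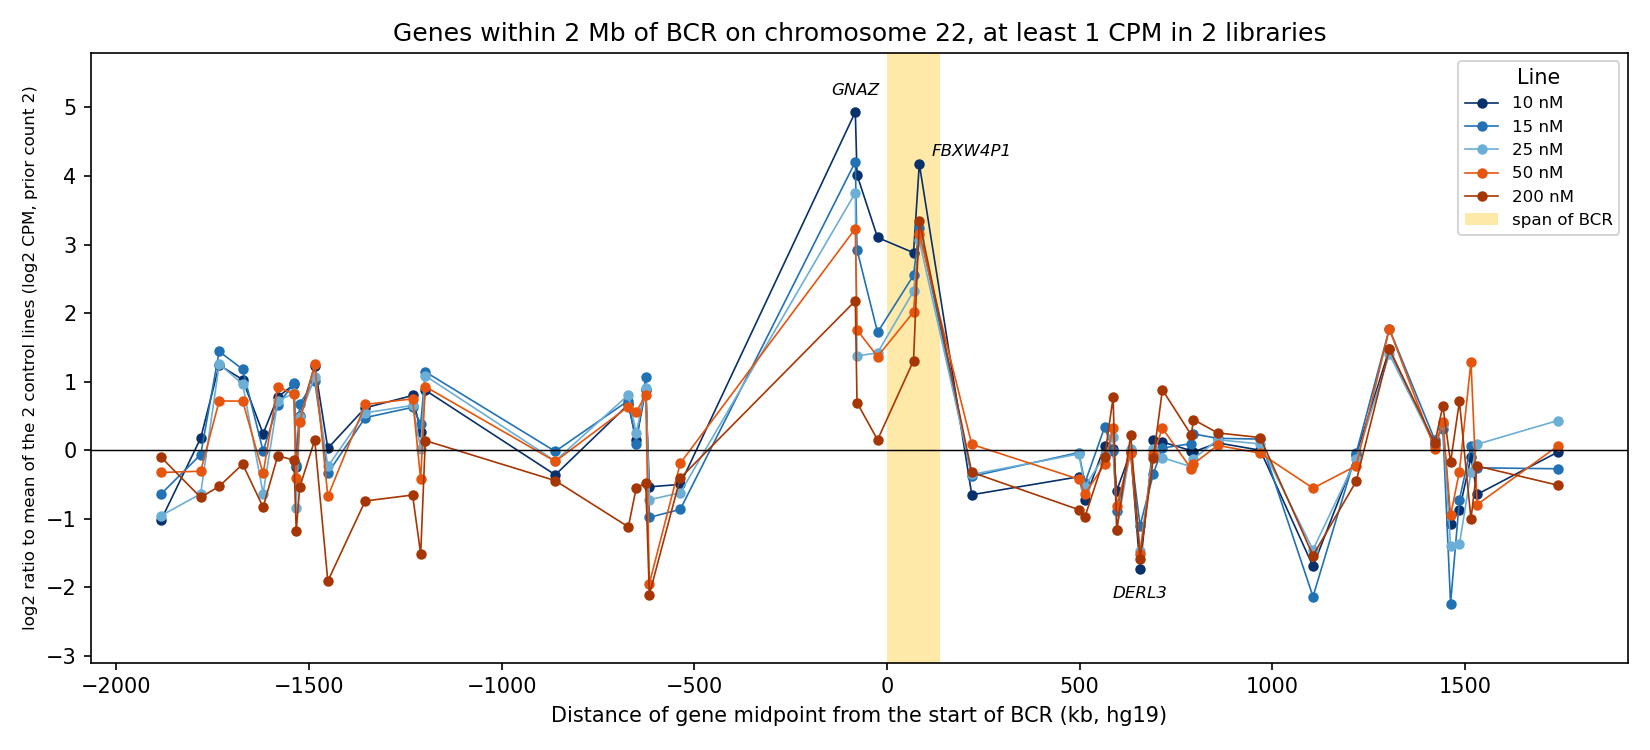
Genes with at least 1 CPM in 2 libraries within 2 Mb of BCR, by the distance of the gene's midpoint from the start of BCR (kb) and the log2 ratio of each DasR line to the mean of the controls (prior count 2), 1 line of points per K562 line, with the span of BCR shaded. Ratios are above 1 in all 5 lines for BCR and FBXW4P1 inside it, those of GNAZ before it stay at 2.18 or more and those of RAB36 just before it go down to 0.15 at 200 nM, and the 200 nM line lies below the other lines at most genes farther before BCR.

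Proteins that bind BCR::ABL1 or are phosphorylated by it were taken from a list of 28 genes, of which 24 passed the filter. In early stage lines 1 was higher and 4 were lower at an FDR of 0.005 (18.0% of all genes called), with a median log2 fold change of -0.24. In late stage lines 1 was higher and 2 were lower (7.98% of all genes called), with a median of -0.02, and none passed between late and early stage lines. Without the drug naive control 2, and without the DMSO control or the 25 nM line 3, were called in early stage lines, and 1 in late stage lines without either control. The FDR values below are from edgeR (quasi-likelihood test, Benjamini-Hochberg adjusted). GAB2, the adaptor that couples the fusion to PI3 kinase and RAS signaling, was at 378.4 and 326.4 CPM in the drug naive and DMSO lines, 76.8, 74.0 and 70.4 CPM at 10, 15 and 25 nM, 78.4 CPM at 50 nM and 82.1 CPM at 200 nM. Unlike ABL1, it differed little among the 5 DasR lines, and its log2 fold change was -2.28 in early stage lines (standard error 0.10, FDR 7.76e-05) and -2.16 in late stage lines (standard error 0.12, FDR 0.000219), called in each of the 7 fits with 1 library left out.

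The STAT5 transcription factors, which are activated downstream of the fusion, were lower in early stage lines, STAT5B by a log2 fold change of -1.02 (FDR 0.000412) and STAT5A of -1.21 (FDR 0.00130, lost without either control or the 25 nM line) by edgeR (quasi-likelihood test, Benjamini-Hochberg adjusted). STAT5B was also lower in late stage lines, by a log2 fold change of -0.94 (FDR 0.00141 by edgeR's test, lost in 4 of the 7 fits with 1 library left out). LYN, a SRC family kinase that dasatinib also inhibits, was lower by a log2 fold change of -0.64 in early stage lines (FDR 0.00266 by edgeR's test, called in 2 of the 7 such fits). PIK3R2, a regulatory subunit of PI3 kinase, was higher in early stage lines (log2 fold change 1.22, FDR 0.000563 by edgeR's test, 0.00750 without the drug naive control). DOK2, a docking protein that limits RAS signaling, was higher in late stage lines, at 32.9 and 39.6 CPM against 5.14 and 4.74 CPM in the controls (log2 fold change 2.85, FDR 0.000893 by edgeR's test, up to 0.0114 without either control). DOK2 passed the limit of 10 CPM through the DasR lines only, and with a limit of 1 CPM its edgeR FDR was 0.0011. CRKL, an adaptor, was chosen here after its values were seen. The paper read the activity of the fusion from its phosphorylated protein, which RNA levels do not measure. CRKL lies on chromosome 22 from 21271695 to 21308035, before BCR and outside the 2 Mb taken around it. Its RNA was at 741.8 and 576.1 CPM in the controls, 1328, 1434 and 1460 CPM in early stage lines, 1293 CPM at 50 nM and 633.2 CPM at 200 nM. Like the median of the 15 tested genes before BCR, it was above the controls from 10 to 50 nM but not at 200 nM. CRKL did not pass the threshold (early stage FDR 0.0196 by edgeR's test), and the cause of its levels was not tested.

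The genes whose levels followed ABL1 most closely were ranked by the Pearson correlation of log2 CPM over the 7 lines. BCR came first (0.9991), followed by RSPRY1 (0.9969), B4GALT6 (0.9955), PPP1R14C (0.9941) and AIF1L (0.9938). For BCR the first was ABL1, followed by RSPRY1 (0.9975), PPP1R14C (0.9963), AIF1L (0.9937) and B4GALT6 (0.9934). The lines come in 2 separate sets, controls and DasR lines, and share 1 escalation. These correlations thus describe the pattern over 7 libraries, the gap between the 2 sets included, and carry no test. RSPRY1 moved over a far smaller range, from 31.4 CPM in both controls to 40.1 CPM at 10 nM. Of the 50 genes closest to ABL1, with BCR and AIF1L among them, 3 lay on chromosome 9 and 6 on chromosome 22, and of the 50 closest to BCR, with ABL1 and AIF1L among them, 4 lay on each. These chromosomes hold 411 and 246 of the 10452 genes.

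As a check of the label, all 12 erythroid markers listed for K562, GATA1, KLF1 and the globin genes among them, were at 1 CPM or more in every line. Their summed level was 4188 and 3598 CPM in the drug naive and DMSO lines, 10130, 11540 and 8684 CPM at 10, 15 and 25 nM, 6023 CPM at 50 nM and 4766 CPM at 200 nM. HBG2 was the most abundant of them in 5 of the 7 lines, HBZ lay above it at 15 nM (2856 against 2283 CPM), and at 25 nM they were at 1916 and 1917 CPM. The sum was thus higher in DasR lines than in controls, as ABL1 and BCR were, with its top at 15 and not at 10 nM, and its part in their levels was not tested. Of 3 megakaryocyte markers only ITGA2B was above 1 CPM in any line, and GP9 and PF4 had at most 1 count in a line. ITGA2B was at 63.9 and 52.5 CPM in the drug naive and DMSO lines, 13.4, 5.96 and 13.2 CPM at 10, 15 and 25 nM, 56.8 CPM at 50 nM and 99.2 CPM at 200 nM. It was thus below the controls in early stage lines, where ABL1 and BCR were highest, and its part in their levels was not tested. Of 11 markers of other blood and tissue cells, 4 were at 1 CPM or more in every line, with LYZ the most abundant, and the list summed to 89.5 and 82.4 CPM in the drug naive and DMSO lines and to between 44.3 and 147.4 CPM in DasR lines. CDH5 had no count in any line and MS4A1 1 count in all.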

How the data were processed

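The authors sequenced 1 library for each of 7 K562 lines, mapped its reads with STAR (hg19) and deposited raw counts per gene from featureCounts, with edgeR and FastQC also named in the submitters' processing notes. Versions of these tools, and whether strand was used in counting, are not given in the sources used here, so overlapping genes cannot be told apart. The protocol states depletion of ribosomal and non-coding RNA, while the labels give polyA RNA. Deposited fold changes and p-values of the authors' own comparisons were not used, and only gene names and lengths were read from those tables.

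Early stage, late stage and control lines were grouped by dose as the paper groups them, which the authors chose from clustering of these libraries. The 10 genes and the lists were chosen with earlier results of these data known. Genes with at least 10 CPM in 2 libraries (10452) were scaled by TMM and tested in edgeR 4.0.16 (R 4.3.3) by the quasi-likelihood test, with 1 coefficient per group, all 7 libraries and Benjamini-Hochberg adjustment at an FDR of 0.005. The common dispersion was 0.0260. CPM used library totals, which ranged from 20059656 to 27844799, and 3 counts, the floor, were 0.108 to 0.150 CPM. Poisson based exact 95% intervals and floors cover counting error only. Lines of 1 group differed by more than sampling noise (chi-square per degree of freedom 15.5 to 48.3), and p-values measure the spread between these lines only. Positions came from a GRCh37 annotation, the build of hg19, which placed 22545 of the 25702 gene IDs, and 23738 had a symbol.

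Genes named beside the 10 are those called within 2 Mb of ABL1 or BCR (at most 6 on each side), the nearest tested gene on each side, called binding partners (at most 6), near relatives and the 5 genes closest to ABL1 and to BCR. Others were picked after their values were seen, as said there. Alternatives were DESeq2 1.42.0, limma 3.58.1 (voom), other scalings and filters, only the groups compared, an FDR of 0.05, a prior count of 0.5 in place of 2, Spearman correlation and leaving out each library. Assays of protein, DNA and drug response were not analysed here.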

Additional observations from a re-analysis of the deposited data

How the results depend on the processing

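No paired analysis was possible because the labels give no replicate numbers and each line is a single library. The fitted log2 fold changes of the 7 genes of the set that were kept for the fit, which are descriptions, had the same sign with every tool, scaling and filter tried. As a description of genes chosen with their values known, their median stayed between 1.55 and 2.17 in early stage, 1.27 and 1.97 in late stage and -0.62 and -0.10 in late against early stage lines with 1 library left out. FAM78A differed by 0.40 between late and early stage lines, by -0.073 without the 200 nM line and by up to 0.751 with another library left out, and NUP214 by -0.28 and by 0.15 without the 10 nM line. Of 350 alternative values of single genes, 331 stayed within the spread between lines, 18 moved by more (among them ABL1 and BCR in late stage lines without the 50 nM line, 1.42 and 1.27) and 1, that of FAM78A, changed sign. The change of sign of NUP214 was within that spread. Leaving out a control leaves 1, which is then assumed to vary like the other groups.

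Counts of called genes moved more. Over all genes, 1881 were called in early stage lines, 3548 by DESeq2, 4865 at an FDR of 0.05 and 208 to 2066 with 1 library left out. The 834 of late stage lines became 2503 by DESeq2, 1287 without a filter, 257 with only the groups compared, 3542 at an FDR of 0.05 and 33 to 596 with 1 library left out. Between late and early stage lines, none became 1135 by DESeq2, 295 without a filter, 1328 at an FDR of 0.05 and 0 to 198 with 1 library left out. Fewest were left without the drug naive control, with 208 and 33 genes in early and late stage lines, and without the DMSO control 529 and 110 were called.

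Within 2 Mb of ABL1, the 9 calls of early stage lines became 19 at an FDR of 0.05 and 0 to 9 with 1 library left out, the 7 of late stage lines 11 by DESeq2, 1 with only the groups compared, 17 at an FDR of 0.05 and 0 to 6 with 1 library left out, and none between late and early stage lines became 1 by DESeq2, without a filter or at an FDR of 0.05. Within 2 Mb of BCR, the 2 of early stage lines became 7 by DESeq2, 1 by limma, 6 without a filter, 13 with only the groups compared, 11 at an FDR of 0.05 and 0 to 13 with 1 library left out, the 1 of late stage lines 4 by DESeq2 or without a filter, 0 by limma, 8 at an FDR of 0.05 and 0 to 2 with 1 library left out, and none between late and early stage lines became 1 at an FDR of 0.05 and 0 to 7 with 1 library left out. Of the binding partners, the 5 of early stage lines became 10 by DESeq2, 14 at an FDR of 0.05 and 2 to 6 with 1 library left out, the 3 of late stage lines 5 by DESeq2 or at an FDR of 0.05 and 1 to 3 with 1 library left out, and none between late and early stage lines became 4 by DESeq2, 1 without a filter and 5 at an FDR of 0.05. By Spearman correlation 30 genes tied at the highest value with ABL1, and 30 with BCR, so that no first 5 could be set, and 3 of the 5 genes named for each were among those tied. The cause of these changes was not tested. Where the share of all genes called in the same fit is not given above, nothing is read from a count of called genes.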
